A study of Homo sapiens with 4 samples.

Results

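The genes of sterol and fatty acid synthesis were followed in RUES2, a line of human embryonic stem cells, when expression of TMEM88 was lowered with short hairpin RNAs (shRNAs). The members are 31 genes named by symbol from textbook knowledge of the pathway, with earlier results of these data known. A gene was kept when at least 1 of its probes had a detection p-value under 0.01 on 2 or more of 4 arrays. Of the 31 genes, 28 were kept, out of 10377 genes kept on the whole array and 20046 named ones. The 35 kept probes of these 28 genes were detected on all 4 arrays. FDFT1, which makes squalene, had no probe named here and was not analysed. STARD4, a carrier of cholesterol between membranes, was detected on no array, with signals from 116.3 to 131.9. SREBF2, which encodes the main transcription factor of sterol synthesis, was detected on 1 array, at 140.7 and 141 on the control arrays, 151.3 on the 691 array and 184.5 on the 94 array.

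Undifferentiated cells had been given lentivirus that expresses an shRNA, selected with puromycin and taken through cardiac differentiation, and total RNA was collected at day 5, the stage of the cardiovascular progenitor. All 4 samples thus carried a lentivirus and passed the selection. The control group held 2 arrays of cells given a control shRNA, called control 1 and control 2, and the TMEM88 group held 1 array for shRNA 691 and 1 for shRNA 94, which target different parts of the TMEM88 locus. The spread of the TMEM88 group therefore contains the difference between hairpins, and what the control shRNA targets was not stated in the labels. Separate cultures are not mentioned in the labels, so p-values reflect only how these samples vary, which may be technical variation, and the small number of arrays limits precision.

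Cells make cholesterol from acetyl-CoA by the mevalonate pathway, which leads to squalene, and by a series of ring and side-chain steps that turn squalene into cholesterol. When sterols in the endoplasmic reticulum run low, SCAP carries the SREBP transcription factors, encoded by SREBF1 and SREBF2, to the Golgi, where they are cut free and switch on genes of both sterol and fatty acid synthesis. The INSIG proteins hold SCAP back when sterols are plentiful, and INSIG1 is itself a target of SREBP. Fatty acid synthesis draws on the same acetyl-CoA, and its products are lengthened and desaturated by the ELOVL, SCD and FADS enzymes.

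The stretches upstream of 4 genes are shown for reference. SC5D and HMGCS1 had the largest differences among the members, though HMGCS1 did not pass, and INSIG1 and INSIG2 are paralogs. Whether these stretches bear on the differences was not tested. The sequences are those of RefSeq on GRCh38.p14, and each gives the 250 bases before the most upstream listed start of the gene, read 5′ to 3′ on the strand of the gene. Capitals mark CCAAT, the letters bound by the factor NF-Y, and GGGCGG, the core of a GC box, on either strand, with overlapping matches counted. SC5D lies on the plus strand at chr11:121292521-121292770, HMGCS1 on the minus strand at chr5:43313413-43313662, INSIG1 on the plus strand at chr7:155297628-155297877 and INSIG2 on the plus strand at chr2:118088221-118088470.
SC5D: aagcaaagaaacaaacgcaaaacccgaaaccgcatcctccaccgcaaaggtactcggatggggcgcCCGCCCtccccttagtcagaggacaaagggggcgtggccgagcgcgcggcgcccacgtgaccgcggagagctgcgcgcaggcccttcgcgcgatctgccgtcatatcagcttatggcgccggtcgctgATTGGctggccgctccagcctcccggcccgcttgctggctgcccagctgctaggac
HMGCS1: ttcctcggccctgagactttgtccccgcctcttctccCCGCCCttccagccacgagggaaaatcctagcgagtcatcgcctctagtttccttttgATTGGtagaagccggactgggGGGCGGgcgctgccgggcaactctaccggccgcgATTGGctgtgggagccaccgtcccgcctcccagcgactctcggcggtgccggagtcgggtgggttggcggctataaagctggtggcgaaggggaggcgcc
INSIG1: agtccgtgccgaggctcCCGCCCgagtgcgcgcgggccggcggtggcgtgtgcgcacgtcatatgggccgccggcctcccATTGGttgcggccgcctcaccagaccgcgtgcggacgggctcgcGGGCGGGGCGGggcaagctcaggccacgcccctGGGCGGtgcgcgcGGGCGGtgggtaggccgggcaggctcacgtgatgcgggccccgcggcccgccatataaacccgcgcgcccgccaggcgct
INSIG2: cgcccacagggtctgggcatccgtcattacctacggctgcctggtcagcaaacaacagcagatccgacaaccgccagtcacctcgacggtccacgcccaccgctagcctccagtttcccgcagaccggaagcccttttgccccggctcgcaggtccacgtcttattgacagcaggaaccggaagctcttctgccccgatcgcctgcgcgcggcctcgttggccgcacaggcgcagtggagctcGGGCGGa

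The stretch of SC5D held 1 CCAAT, starting 56 bases before the start, and 1 GGGCGG, and that of HMGCS1 held 2 of each. In INSIG1 there were 1 CCAAT and 5 GGGCGG, and in INSIG2 no CCAAT and 1 GGGCGG. Promoter windows of 300 bases were listed for 27 of the 31 members, and some members had several starts. Over all listed starts of a gene, 20 of 27 members held a CCAAT, against 39.7% of 27305 genes, and 26 of 27 held GGGCGG, against 48.3%. The strict form of the sterol regulatory element that was searched, TCACNCCAC on either strand, stood in 1 of 27 members, SREBF2, and in 1.39% of all genes. The 27305 genes are more than the 10377 kept on the array, whereas most members were kept, so the backgrounds are unlike. These matches describe letters in a window, not sites in use.

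Of 47322 probes an array, between 15300 and 16516 were detected, with median signals from 130.9 to 135.7. TMEM88, the targeted gene, checks the labels. It gave signals of 2292.8 and 2987 on the control arrays, 360.7 on the 691 array and 1329.7 on the 94 array, so both TMEM88 arrays lay below both controls. Normalized TMEM88 was 9.62% of the control mean under shRNA 691 and 52.9% under shRNA 94, and the difference over both hairpins did not pass (limma adjusted p = 0.187). Across all genes, 106 of 10377 fell and 99 rose at an adjusted p under 0.05, which is 1.02% and 0.954% of them. The median difference of all genes was 0.00 on the log2 scale, and that of the 28 members was -0.27.

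Of the 28 members, 1 fell and none rose: SC5D, the sterol desaturase that acts shortly before the last step of cholesterol synthesis, stood at 17.9% of its control level. The other sterol and fatty acid genes stayed closer to the controls, with log2 differences from -1.12 for HMGCS1 to 0.39 for PMVK. On simulated data the same steps called 5.5% of genes changed by 1 and 83.9% of those changed by 2. Not passing therefore says little about differences near 1 or smaller. In 24 of 28 members the difference was below 0, against 49.9% of all genes. Both TMEM88 arrays lay below both controls for 11 members, where 24.9% of all genes did so, and above both controls for 1 member, PMVK, where 25.2% of all genes did so. At an unadjusted p under 0.05, 6 members were lower (SC5D, HMGCS1, INSIG1, IDI1, FASN and SQLE), against 8.81% of all genes, and 0 were higher, against 9.53% of all genes. Because the members were chosen with earlier results of these data known, these shares describe the list and do not test it. On these bulk arrays, fewer cells of a type and less RNA per cell cannot be told apart.

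These counts depended on which control was used. Without control 1, 15 of 28 members had a difference below 0, against 47.7% of all genes, and the median member difference was -0.10. Without control 2, 26 of 28 did so, against 53.0% of all genes, and the median was -0.46. For members with both TMEM88 arrays below the remaining control, the counts were 14 without control 1 and 22 without control 2, against 39.0% and 41.2% of all genes. The 11 members below both controls were SC5D, HMGCS1, INSIG1, IDI1, FASN, SQLE, ELOVL6, ACACA, NSDHL, LSS and MVK.

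**Figure D1:**
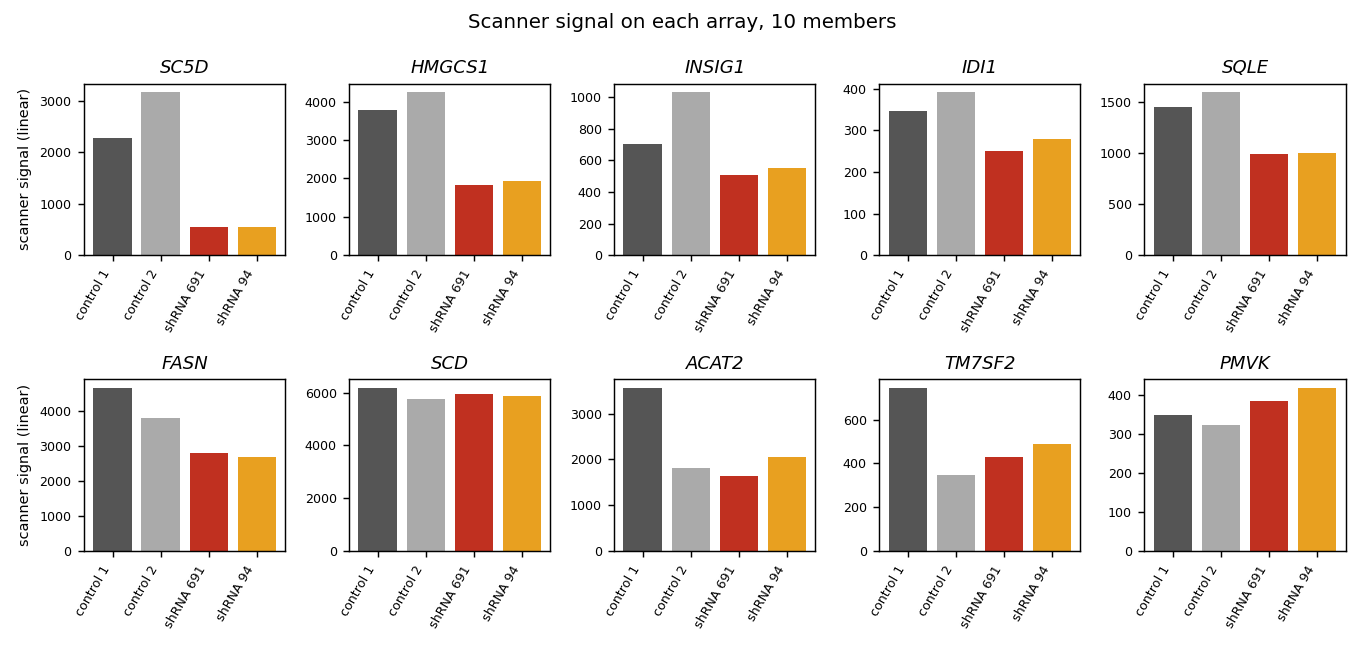
Linear scanner signal (vertical axis, from 0) of 10 members on each array, 1 bar an array, with no error bars because each bar is 1 measurement. SC5D, HMGCS1, INSIG1, IDI1, SQLE and FASN are lower on both TMEM88 shRNA arrays, SCD is level, ACAT2 and TM7SF2 are high in control 1 alone, and PMVK is slightly higher with both hairpins.

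The genes from squalene to cholesterol held the only member that passed. SC5D gave signals of 2283 and 3171.3 on the control arrays, 552 on the 691 array and 551.3 on the 94 array. The groups were far apart, and both TMEM88 arrays had almost the same signal. SC5D had only 1 probe named here, so no second probe could be compared. SC5D stood at 17.9% of the control mean, a log2 difference of -2.48 ± 0.27 (n = 2 per group, ± is the SE, 95% interval -3.12 to -1.84, limma adjusted p = 0.00991), and SC5D ranked 47 from the lowest of 10377 genes. The difference was -2.20 in the authors' deposited log2 matrix, -2.75 without control 1 and -2.21 without control 2. Without the array of shRNA 691 the difference of SC5D was -2.39 with an adjusted p of 0.0567 in limma, which misses the threshold. With no detection filter, which adds undetected genes to the variance fit and to the adjustment, its adjusted p in limma was 0.0638.

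DHCR7, which acts on the product of SC5D in the last step to cholesterol, gave signals of 583.4 and 446.8 on the control arrays, 459.4 on the 691 array and 516.7 on the 94 array. Its groups overlapped, with a log2 difference of -0.05 ± 0.27, and the second probe gave -0.09. EBP, the isomerase that makes the substrate of SC5D, gave signals of 1007.7 and 676.9 on the control arrays, 845.2 on the 691 array and 1010.7 on the 94 array. The log2 difference of EBP was 0.25 ± 0.30, so the steps just before and after SC5D showed no such fall, with 95% intervals of -0.46 to 0.95 for EBP and -0.70 to 0.60 for DHCR7.

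SQLE, the squalene epoxidase that opens these steps, gave signals of 1449.5 and 1602.3 on the control arrays, 988.6 on the 691 array and 1002.1 on the 94 array. All TMEM88 values lay below all control values. Its log2 difference was -0.59 ± 0.23 (limma adjusted p = 0.243), and the second probe gave -0.66. NSDHL, which removes methyl groups from the sterol ring, had -0.51 ± 0.25 and LSS, the cyclase that makes lanosterol, -0.46 ± 0.29, both with no overlap between groups, though for LSS the signals of control 2 and shRNA 691 were 361.6 and 361.4. Without control 1 the difference of LSS was -0.12. MSMO1, the methyl oxidase that works with NSDHL, gave -0.32 ± 0.29 with the probe used and -0.58 and 0.19 with its other probes, so its probes disagree in sign, and the first gave -0.099 without control 2. CYP51A1, the lanosterol demethylase, had -0.22 ± 0.26 (-0.029 without control 2). HSD17B7, a keto reductase that works with MSMO1 and NSDHL, had -0.13 ± 0.27. TM7SF2, a reductase that follows CYP51A1, gave signals of 747.7 and 345.2 on the control arrays, 428.3 on the 691 array and 489.2 on the 94 array. Its controls bracketed both TMEM88 arrays, so the log2 difference of -0.12 ± 0.44 was small beside the control gap of 1.34.

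In the mevalonate pathway no gene passed, and 6 of 7 members had a difference below 0. HMGCS1, the synthase that builds HMG-CoA, gave signals of 3790.5 and 4256.8 on the control arrays, 1821.5 on the 691 array and 1930.8 on the 94 array. Each group was tight and the groups did not overlap. Only 1 probe was named for HMGCS1 too, so no second probe could be compared. HMGCS1 stood at 46.0% of the control mean, a log2 difference of -1.12 ± 0.23 (95% interval -1.67 to -0.57, limma adjusted p = 0.0657), just above the threshold. The call changed with the processing. The adjusted p in limma was 0.0237 in the authors' deposited log2 matrix and 0.0239 with no background correction. It was 0.0311 with an offset of 50 and 0.0127 with an intensity trend (limma). HMGCS1 missed the threshold with median centring (limma adjusted p = 0.0775) and with detection on all 4 arrays (0.0576). It also missed it with a mean over detected probes (limma adjusted p = 0.0627) and with no detection filter (0.115). The call also changed with the array left out. The difference was -1.21 without control 1, -1.03 without control 2, -1.19 without shRNA 94 and -1.05 without shRNA 691.

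IDI1, the isomerase of isopentenyl diphosphate, gave signals of 346.4 and 393 on the control arrays, 250.6 on the 691 array and 280.4 on the 94 array. It too was lower on both TMEM88 arrays, with a log2 difference of -0.72 ± 0.28 (limma adjusted p = 0.245). MVK, the kinase of mevalonate, was dim, with signals from 160.8 to 181.7 against medians of 121.3 to 125.6 for undetected probes, and had -0.41 ± 0.23 with no overlap. PMVK, the next kinase, gave signals of 349 and 323.1 on the control arrays, 384.5 on the 691 array and 419.5 on the 94 array, and its log2 difference of 0.39 ± 0.25 did not pass (limma adjusted p = 0.463). It was the only member with both TMEM88 arrays above both controls.

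ACAT2, the thiolase that supplies acetoacetyl-CoA, had signals of 3573.6 in control 1, 1822 in control 2, 1627.1 with shRNA 691 and 2054.6 with shRNA 94. Control 1 alone stood high, and the log2 difference of -0.46 ± 0.37 became 0.05 without control 1. MVD, the decarboxylase of the pathway, had -0.42 ± 0.36 and 0.11 without control 1. FDPS, which makes farnesyl diphosphate, gave signals of 552.1 and 346.2 on the control arrays, 378 on the 691 array and 422.2 on the 94 array. Its TMEM88 arrays lay between the controls, with a log2 difference of -0.13 ± 0.33.

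**Figure D2:**
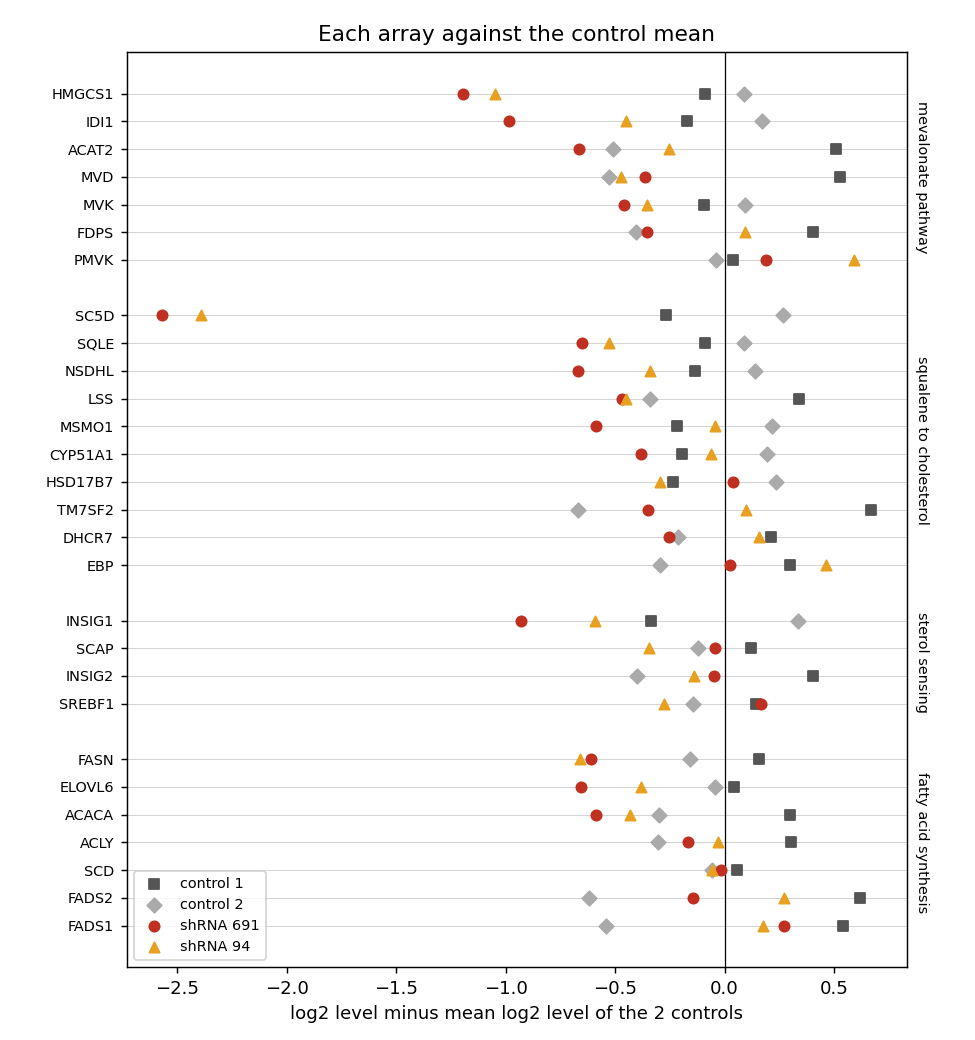
Level of each of the 28 kept members on each array as log2 level minus the mean of the 2 controls (horizontal axis), with members in rows by role and 1 symbol an array. SC5D and HMGCS1 stand apart on the left with both hairpins, while in TM7SF2, FADS1, FADS2 and MVD the 2 controls are over 1 apart and enclose most TMEM88 shRNA values.

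Among the sterol sensors no gene passed, and all 4 kept members had a difference below 0. INSIG1, which retains SCAP in the endoplasmic reticulum, gave signals of 706.5 and 1034.1 on the control arrays, 506.8 on the 691 array and 552.7 on the 94 array. Both TMEM88 arrays were lower than both controls. Its log2 difference was -0.76 ± 0.30 (limma adjusted p = 0.249), and it depended on the control. Without control 1 it was -1.10, and without control 2 it was -0.43. INSIG2, the paralog that does the same job but is not a classic SREBP target, gave signals of 284.5 and 202.2 on the control arrays, 244.9 on the 691 array and 216.6 on the 94 array. Both TMEM88 values of INSIG2 lay between the controls, and its log2 difference was -0.09 ± 0.31. The difference between INSIG1 and INSIG2 was not tested, and without control 2 INSIG2 had -0.50, beside the -0.43 of INSIG1. SCAP, the escort protein, gave signals of 1787.3 and 1519.7 on the control arrays, 1568.8 on the 691 array and 1215.6 on the 94 array. Its groups overlapped, with a log2 difference of -0.19 ± 0.24. SREBF1, the factor best known for fatty acid genes, gave signals of 249.2 and 217.1 on the control arrays, 261.3 on the 691 array and 202.9 on the 94 array. Here the hairpins lay on opposite sides of the controls, and the log2 difference was -0.06 ± 0.26.

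Of the 7 fatty acid genes none passed, and 5 had a difference below 0. FASN, the fatty acid synthase, gave signals of 4679.5 and 3805.6 on the control arrays, 2812.9 on the 691 array and 2691.3 on the 94 array. Both TMEM88 arrays were lower and close to each other. The log2 difference of FASN was -0.63 ± 0.24 (limma adjusted p = 0.232), which puts it at 64.4% of the control mean. ELOVL6, which lengthens saturated fatty acids, gave signals of 1512.2 and 1409.6 on the control arrays, 956.5 on the 691 array and 1060 on the 94 array. It had a log2 difference of -0.52 ± 0.24 (limma adjusted p = 0.301), and -0.28 with its second probe. ACACA, the carboxylase that makes malonyl-CoA, had -0.51 ± 0.28 and -0.48 with its second probe, also with no overlap, but -0.21 without control 1.

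SCD, the desaturase of saturated fatty acids, gave signals of 6195.8 and 5754.8 on the control arrays, 5935.8 on the 691 array and 5863.6 on the 94 array. All 4 arrays lay close together, and the log2 difference was -0.04 ± 0.22 with a 95% interval of -0.57 to 0.50, which excludes a fall or rise of 1. For 12 of the 28 members the interval lay within 1 on either side of 0. ACLY, which makes cytosolic acetyl-CoA from citrate, had -0.10 ± 0.28 and -0.16 with its second probe. FADS1 and FADS2, neighbouring desaturases of polyunsaturated fatty acids, had 0.22 ± 0.37 and 0.06 ± 0.42. For FADS1 the signals were 2563.3 in control 1, 1266.3 in control 2, 2075.9 with shRNA 691 and 1906.6 with shRNA 94, so both TMEM88 arrays lay between the controls.

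**Figure D3:**
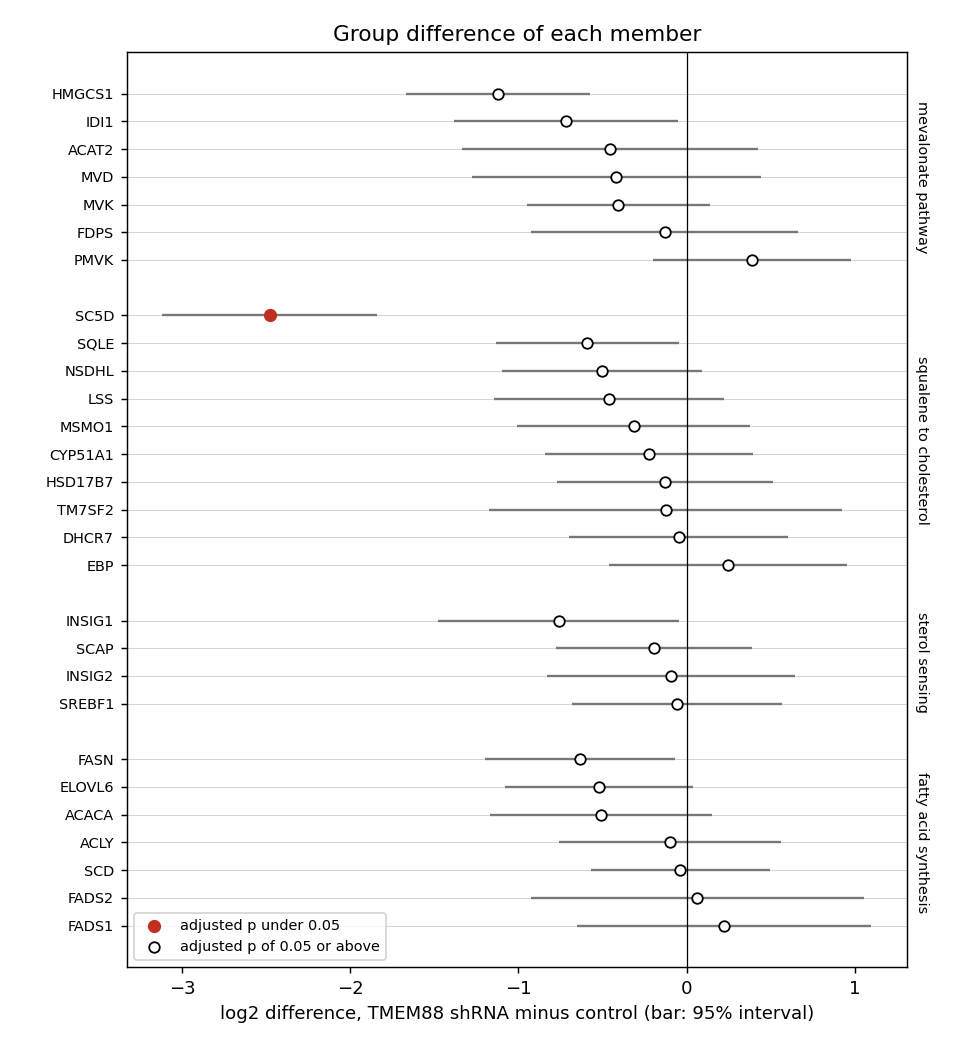
Log2 difference of TMEM88 shRNA minus control for the 28 kept members (horizontal axis), with 95% intervals from limma as bars and members in rows by role. SC5D alone passed, at -2.48. The intervals of HMGCS1, IDI1, SQLE, INSIG1 and FASN also lie below 0 before adjustment.

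The controls themselves differed in these genes. Control 1 was above control 2 by over 0.5 on the log2 scale for 11 of 28 members, against 18.2% of all genes: TM7SF2, FADS2, FADS1, MVD, ACAT2, FDPS, INSIG2, LSS, ACLY, ACACA and EBP. Control 2 was above control 1 by over 0.5 for 2 members, INSIG1 and SC5D, against 14.7% of all genes. The gap between controls was larger than the group difference for 18 of 28 members, against 53.3% of all genes. Among the 11 members with both TMEM88 arrays below both controls, control 2 was the higher control for 7 and control 1 for 4.

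**Figure D4:**
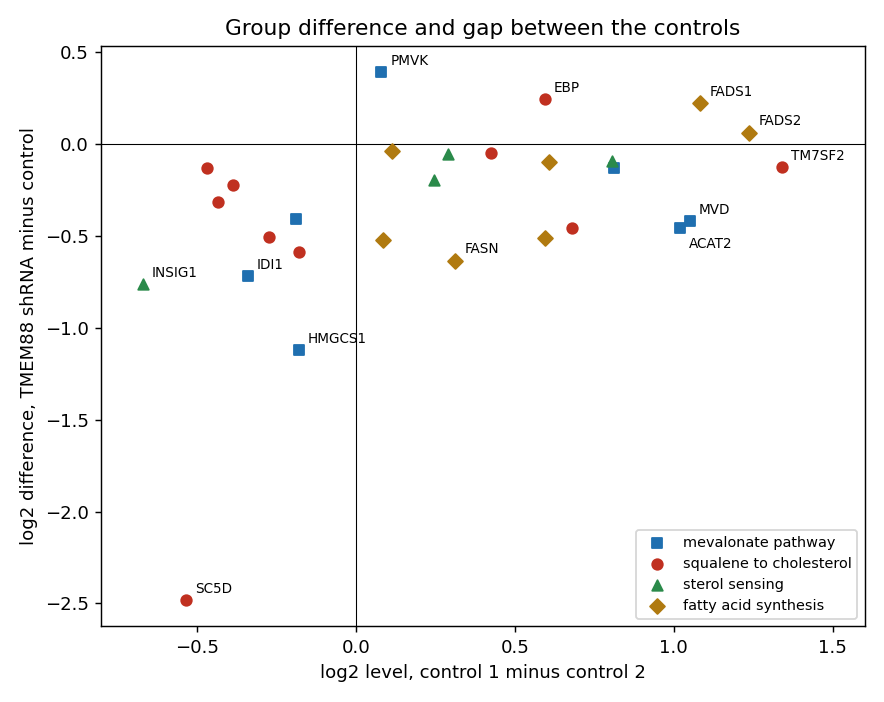
Each point is 1 of the 28 kept members, with the log2 level of control 1 minus control 2 on the horizontal axis, the log2 difference of TMEM88 shRNA minus control on the vertical axis, and colour and shape for its role. TM7SF2, FADS2, FADS1, MVD and ACAT2 lie far to the right, with control 1 higher by over 1, while SC5D and HMGCS1 lie lowest and left of 0.

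Set against the same controls, the hairpins gave these values for the members. With shRNA 691 alone, SC5D stood at 16.9% of the control mean (log2 difference -2.57, limma adjusted p = 0.0360), and it was the 1 member called, against 0.53% of all genes called lower. With shRNA 94 alone, SC5D stood at 19.0% (log2 difference -2.39, limma adjusted p = 0.0567), and no member was called, against 0.337% of all genes called lower, although 2 members (SC5D and HMGCS1) were lower at an unadjusted p under 0.05, against 4.68% of all genes. In these fits the single array of a hairpin takes its spread from the controls. HMGCS1 stood at 43.7% with shRNA 691 and 48.3% with shRNA 94, IDI1 at 50.5% and 73.3%, INSIG1 at 52.4% and 66.4%, and FASN at 65.6% and 63.2%. The difference between hairpins itself passed for no member and for 0% of all genes in limma, and no member had an unadjusted p under 0.05, where 0.944% of all genes did. For SC5D shRNA 691 minus shRNA 94 was -0.18 ± 0.49 on the log2 scale. For TMEM88 it was -2.46 ± 0.48, and even this did not pass. A comparison of 1 array with 1 could call very little, so it does not show that the hairpins acted alike.

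Other genes of lipid metabolism were listed by function, with list medians from -0.45 to 0.09. Of 17 genes of fatty acid activation and elongation 10 were tested, 7 had a difference below 0 and the median was -0.11. ACSL1, a long-chain acyl-CoA synthetase, gave signals of 196 and 235.3 on the control arrays, 145.1 on the 691 array and 129 on the 94 array. It was the only gene of this list past the threshold (limma adjusted p = 0.0297), but it was detected on both controls and on neither TMEM88 array. ACSL1 thus passed the detection filter only because of the controls, and its difference is a description. With background correction it was at least 2.65-fold lower, a bound in which each TMEM88 array enters with its own level or the lowest detected level, whichever is higher. The log2 difference of ACSL1 shrank from -1.85 to -0.68 with no background correction and to -0.72 in the authors' deposited log2 matrix, below that bound. Neither passed (adjusted p = 0.105 and 0.0918 in limma), nor did ACSL1 pass with no detection filter (0.117) or without shRNA 691 or 94 (0.0992 and 0.189). SCD5, a second stearoyl-CoA desaturase singled out after its values were seen, gave signals of 171.2 and 121.9 on the control arrays, 244.7 on the 691 array and 371.2 on the 94 array. It was not detected in control 2, and its log2 difference of 2.29 ± 0.56 did not pass (limma adjusted p = 0.102).

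None of the remaining lists had a called gene in limma. At an unadjusted p under 0.05 they held 1 isoprenoid gene (PDSS1, lower), 1 of sterol transport (GRAMD1A, higher), 1 of SREBP processing (ERLIN1, higher), 1 further sterol synthesis gene (LBR, lower), 3 of fatty acid oxidation (SLC25A20 and PPARGC1A lower, ACAA2 higher) and 0 of glycerolipid synthesis, all singled out by this p after their values were seen. PPARGC1A was detected on the controls alone, so it entered the test through the group where it was high. SLC25A20 had -1.31 ± 0.27 (limma adjusted p = 0.0644) and was undetected on the 691 array, and PDSS1 had -0.93 ± 0.26. The higher genes ERLIN1, ACAA2 and GRAMD1A had 0.81 ± 0.25, 0.68 ± 0.23 and 0.61 ± 0.26. Of 11 isoprenoid branch genes, all tested, 8 had a difference below 0, with a median of -0.20. Both TMEM88 arrays lay below both controls for 6 of the 11, against 24.9% of all genes, and above for 2, against 25.2%. GGPS1, which makes geranylgeranyl diphosphate, had 0.31 ± 0.22 while COQ2, of coenzyme Q synthesis, had -0.08 ± 0.22. Of 16 genes of sterol uptake, export and storage 12 were tested and 5 had a difference below 0, with a median of 0.09. NPC2, a lysosomal cholesterol carrier, had -0.08 ± 0.23 and OSBPL9, a lipid transfer protein gene, -0.20 ± 0.23. Of 9 genes of SREBP processing 6 were tested and 3 had a difference below 0, with a median of -0.02. MBTPS1, the protease that first cuts SREBP, had 0.14 ± 0.26, which became -0.04 as a mean over its detected probes, and ERLIN2 had -0.59 ± 0.25. LBR, which shares its reductase step with TM7SF2, had -0.66 ± 0.26 (-0.42 without control 1), and FAXDC2, the only other gene tested of 6 further sterol synthesis genes, -0.23 ± 0.25.

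Of 17 fatty acid oxidation genes 13 were tested, 8 of them with a difference below 0 and a median of -0.11, with -0.41 ± 0.30 for HADH (-0.049 without control 1) and -0.44 ± 0.23 for ECHS1, enzymes of the oxidation cycle. For glycerolipid and phospholipid synthesis 12 of 14 genes were tested, 7 had a difference below 0 and the median was -0.06. PTDSS1, a phosphatidylserine synthase, had -0.01 ± 0.23, and PLIN2, a lipid droplet coat protein gene, had -0.11 ± 0.44. The median of all genes was 0.00.

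Markers of cell types also differed between the groups. Of 10 cardiovascular progenitor markers 8 were tested, 4 with a difference below 0, and the list went both ways. HAND2 and PDGFRA fell. MEF2C was also past the threshold, but was detected on the controls alone and so entered the test through them. GATA4, also below 0, had -1.17 ± 0.44 and did not pass (limma adjusted p = 0.232). Both TMEM88 arrays lay below both controls for 4 markers and above for 1, against 24.9% and 25.2% of all genes. At an unadjusted p under 0.05, 4 were lower (MEF2C among them) and 0 higher, against 8.81% and 9.53% of all genes. The markers above 0 were KDR (1.20 ± 0.69), NKX2-5 (0.97 ± 0.42), HAND1 (0.71 ± 0.50) and ISL1 (0.03 ± 0.26), of which none passed. TBX5 and TBX20 were undetected on all 4 arrays, and the summed linear level was 8023 and 12096 in the controls against 9131 with shRNA 691 and 9805 with shRNA 94. Of 6 primitive streak markers 2 of 3 tested rose (EOMES and MESP1), TBXT and TBX6 were undetected, and the summed level was 395.7 and 555.8 in the controls against 5159 and 3820 with shRNA 691 and 94. For 10 endoderm and liver markers 1 of 7 tested rose (CXCR4), 5 were higher at an unadjusted p under 0.05 and 6 had both TMEM88 arrays above both controls. TTR, among the 5, was detected on the TMEM88 arrays alone. AFP and APOB were undetected, and the sums were 1475 and 1024 against 3665 and 3167. Of 7 neural ectoderm markers 3 of 4 tested rose (OTX1, OTX2 and ZIC2), PAX6, SIX3 and SOX1 were undetected, and the sums were 1156 and 924.1 against 3841 and 3706. None of 5 tested pluripotency markers of 7 passed in limma (2 at an unadjusted p under 0.05), with sums of 9837 and 10768 against 15672 and 11344, and NANOG and CRIPTO (TDGF1) were undetected. Of 6 adipocyte markers ADIPOQ, CIDEC, FABP4 and PLIN1 were undetected, and the sums, none called and 1 lower at an unadjusted p under 0.05 of 2 tested (LEP, detected on the controls alone), came to 102.6 and 146.4 against 97.0 and 79.7. The part of these shifts in the values of SC5D and the other members was not tested.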

How the data were processed

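RNA of 4 samples was labelled with biotin and hybridised to single-colour Illumina bead arrays, per the labels. The authors' deposited scanner table holds linear intensity values, not normalized, for 47322 probes, and the detection p-value that the deposited table gives beside each one. The authors' deposited matrix holds log2 values within 0.158 of quantile-normalized log2 signals, and its column medians were all 7.02. Its exact steps are not given in the sources used here. Per the submitters' processing notes, the authors used lumi and limma 3.12.3, at steps not specified.

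Groups came from the labels, with 2 arrays each, and no pairing or batch is labelled. Background correction and quantile normalization used the neqc function of limma 3.58.1 (R 4.3.3, offset 16), with negative controls inferred from detection p-values. Of the probes, 30113 had 1 symbol, 8 several and 17201 none in the platform annotation, matched to RefSeq by gene ID. Each gene took its brightest probe among those detected (p under 0.01) on 2 or more arrays. The 10377 genes were tested with lmFit and eBayes, 2-sided, with 2 residual and 4.84 prior degrees of freedom and Benjamini-Hochberg adjustment over all genes. Hairpins were fitted as groups of 1 in a fit with 3 groups.

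Members and lists were chosen with earlier results of these data known. Signals were given on every array for called members and, in each role group, for the members with the 2 largest and the smallest absolute differences, with some further members added after their values were seen. From each other list, called genes or the 2 brightest were named. The fit and adjustment were also run on simulated data, with 200 of 10377 genes changed in each of 20 draws. Values were drawn from the means and the variance prior fitted here, with the same spread in both groups. Normalization, the detection filter and the choice of probes were not simulated. On these draws 5.5% of genes changed by 1 on the log2 scale were called. Of those changed by 2 and by 3, 83.9% and 98.3% were called. Of the calls, 6.02% were false. Alternatives covered background, normalization, the deposited matrix, filter, probes, variance model, threshold and each array left out. Figures used matplotlib 3.10.9.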

Additional observations from a re-analysis of the deposited data

Results flagged for a closer look

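SREBF1 was singled out because the hairpins lay on opposite sides of both controls, with shRNA 691 above and shRNA 94 below. The level with shRNA 691 exceeded that with shRNA 94 by 0.44 on the log2 scale, which did not pass in limma (adjusted p = 1).

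Probes of members that missed the detection filter were also looked at. A second probe of SREBF1 was detected with shRNA 691 alone, with a signal of 158.3 there, 146 and 136.2 in the controls and 126.6 with shRNA 94. The probe of SREBF2 was detected with shRNA 94 alone, with a signal of 184.5 there and 140.7 and 141 in the controls. Neither was tested.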

How the results depend on the processing

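SC5D kept its direction under all alternatives run, from -2.20 in the deposited matrix to -2.75 without control 1, and HMGCS1 kept its own. The count of called members, 1 here, was 2 with no background correction, with an offset of 50, in the deposited log2 matrix, with an intensity trend and at a threshold of 0.1, HMGCS1 being the second each time. It was 0 with no detection filter and ran from 0 without shRNA 691 to 3 (SC5D, HMGCS1 and INSIG1) without control 1. For shRNA 691 the count of 1 became 0 with no background correction, when detected on all 4 arrays and with no detection filter. For shRNA 94 the count of 0 became 1 with an offset of 50, median centring, a mean over probes, an intensity trend and a threshold of 0.1. Over all genes the count of 205 was 19 with no detection filter, 448 at a threshold of 0.1 and 50 (without shRNA 691) to 1453 (without control 1) with an array left out. Leaving out a hairpin gave 50 and 90, and leaving out a control 1453 and 548. A lone array in these fits is given the spread of the other group, so their counts are descriptions. Without control 1 the count rose over all genes as well as among members, so the rise among members was not particular to them. The median member difference of -0.27 lay between -0.46 and -0.10 with an array left out. With a control left out, a choice made after seeing the data, members with both TMEM88 arrays below the controls numbered 14 (without control 1) and 22 (without control 2), and members with a difference below 0 numbered 15 and 26. The cause of these shifts was not tested. A wider filter adds genes to the variance fit as well as to the adjustment. MBTPS1 turned to -0.041 with a mean over probes. With an array left out, the sign turned for 13 members and 4 other named genes: ACAT2 from -0.97 to 0.052, MVD from -0.94 to 0.11, FDPS from -0.54 to 0.28, TM7SF2 from -0.79 to 0.55, HSD17B7 from -0.36 to 0.11, EBP from -0.052 to 0.54, DHCR7 from -0.26 to 0.16, INSIG2 from -0.50 to 0.31, SREBF1 from -0.28 to 0.16, ACLY from -0.40 to 0.21, SCD from -0.094 to 0.020, FADS1 from -0.32 to 0.77, FADS2 from -0.56 to 0.68, MBTPS1 from -0.094 to 0.37, NPC2 from -0.19 to 0.031, PLIN2 from -0.81 to 0.59 and PTDSS1 from -0.079 to 0.063. In all, 15 of 28 members kept their direction throughout. Signals of MVK and CYP51A1 lay close to those of undetected probes, which limits their precision. MVD, at 182.3 in control 2 and 182.2 with shRNA 94, and FADS2, at 174.7 in control 2, were as dim there. The control gaps of MVD and FADS2 thus rest in part on dim signals. No paired analysis was possible because the labels give no number shared between groups.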
